A study of Mus musculus with 48 samples.

Results

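The genes described here serve calcium release and excitation coupling in skeletal muscle, and they were taken by gene name: Ryr1, Trdn, Cacna1s, Cacng1, Stac3, Jph1, Jph2, Slc8a3, and Sln. They are 9 of the 56748 genes in the deposited expression table. Each name matched 1 row, and all 9 passed the filter on low counts that left 15637 genes for the tests.

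In skeletal muscle an action potential runs down the transverse tubules and moves the voltage sensor of the L-type calcium channel, which opens the calcium release channel of the facing sarcoplasmic reticulum by direct contact. The meeting point of these membranes is the triad, and its proteins hold the membranes at a fixed distance and tie the release channel to the calcium store. Relaxation follows when pumps and exchangers take the calcium out of the cytosol. Tibialis anterior (TA), the muscle sampled, is built mostly of fast fibers, which depend on this release more than on calcium entry from outside.

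RNA sequencing (RNA-seq) had been done on TA muscle of 48 male mice, 39 to 55 weeks old, each giving 1 library. The mice were wild type (WT) or FoxP1SkmKO, which are homozygous FoxP1fl/fl mice with the ACTA1-Cre transgene, so that the forkhead factor FoxP1 is deleted where the skeletal actin promoter is active, in muscle fibers and not in the other cells of the tissue. The sample labels give C57BL/6J for the WT mice, whereas the study's design text describes them as FoxP1fl/fl mice without Cre. KPC mice carried orthotopic pancreatic tumors of the murine KPC line, and control mice had received sterile PBS into the pancreas. Muscles were collected in constant darkness every 4 h from circadian time (CT) 18 to CT38, where CT26 is 08:00 by the clock, which made 24 groups of 2 mice and 12 mice for each genotype and condition.

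The libraries held between 14480867 and 20787784 counts on genes (median 16602092). Markers of skeletal muscle (Acta1, Ckm, Myh4, Mb, Ttn, and Des) summed to between 31813 and 45620 FPKM (fragments scaled to gene length and library size) in each library. The gene-level count of the targeted gene did not pass the test between the genotypes: Foxp1 had a median of 0.62 FPKM in WT control and 0.59 FPKM in FoxP1SkmKO control mice, and the log2 difference was -0.11 (SE 0.07, adjusted p = 0.459). In KPC mice it was -0.20 (95% interval -0.34 to -0.06, adjusted p = 0.246). Every adjusted p here is from the quasi-likelihood test of edgeR, adjusted by Benjamini-Hochberg over all genes tested, unless another test is named. Reads from exons outside the deleted part, or from other cells, count toward the Foxp1 value, and their share was not tested. The 2 WT control libraries at CT26 stood apart. CT26 was compared with its neighboring times because earlier results on these data had singled it out. The p-values of that comparison are therefore descriptive. In WT mice it shares these control libraries with the KPC contrast at CT26. When CT26 was compared with the mean of CT22 and CT30, 2356 genes (15.1% of those tested) differed in WT controls, against 2 genes in WT KPC (0.0128%), 0 in FoxP1SkmKO control (0%), and 10 in FoxP1SkmKO KPC mice (0.064%). The difference in WT controls moved with gene length: its median log2 value was 0.15 over 1118 genes shorter than 1000 bases and -0.26 over 2488 genes of 8000 bases or more. Several tests that rest on these 2 libraries are therefore also given without CT26 or without the libraries. Others, such as the averaged genotype differences of Cacng1, Stac3, and Jph2, are given only with them.

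Levels between genes are compared in FPKM, which is per gene length. Over the 48 libraries Jph2 had the highest median, 313 FPKM (range 239.9 to 390.4), and Ryr1 followed with 306 FPKM (range 189.6 to 389.9). Cacna1s had a median of 176 FPKM and Cacng1 of 172 FPKM, with ranges of 106 to 226 and 145 to 233. The ranges overlapped within both pairs, and the order within each pair was within the spread of the libraries. Trdn (median 101 FPKM, range 81.6 to 131) and Jph1 (median 99.3 FPKM, range 82.8 to 119) formed another overlapping pair. Stac3 lay next at 76.0 FPKM (range 53.8 to 88.9), and Slc8a3 lay below every Stac3 value at 24.8 FPKM (range 15.2 to 36.6). Sln was near the bottom of the range, with a median of 1.01 FPKM, but reached 34.1 FPKM in 1 library.

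**Figure D1:**
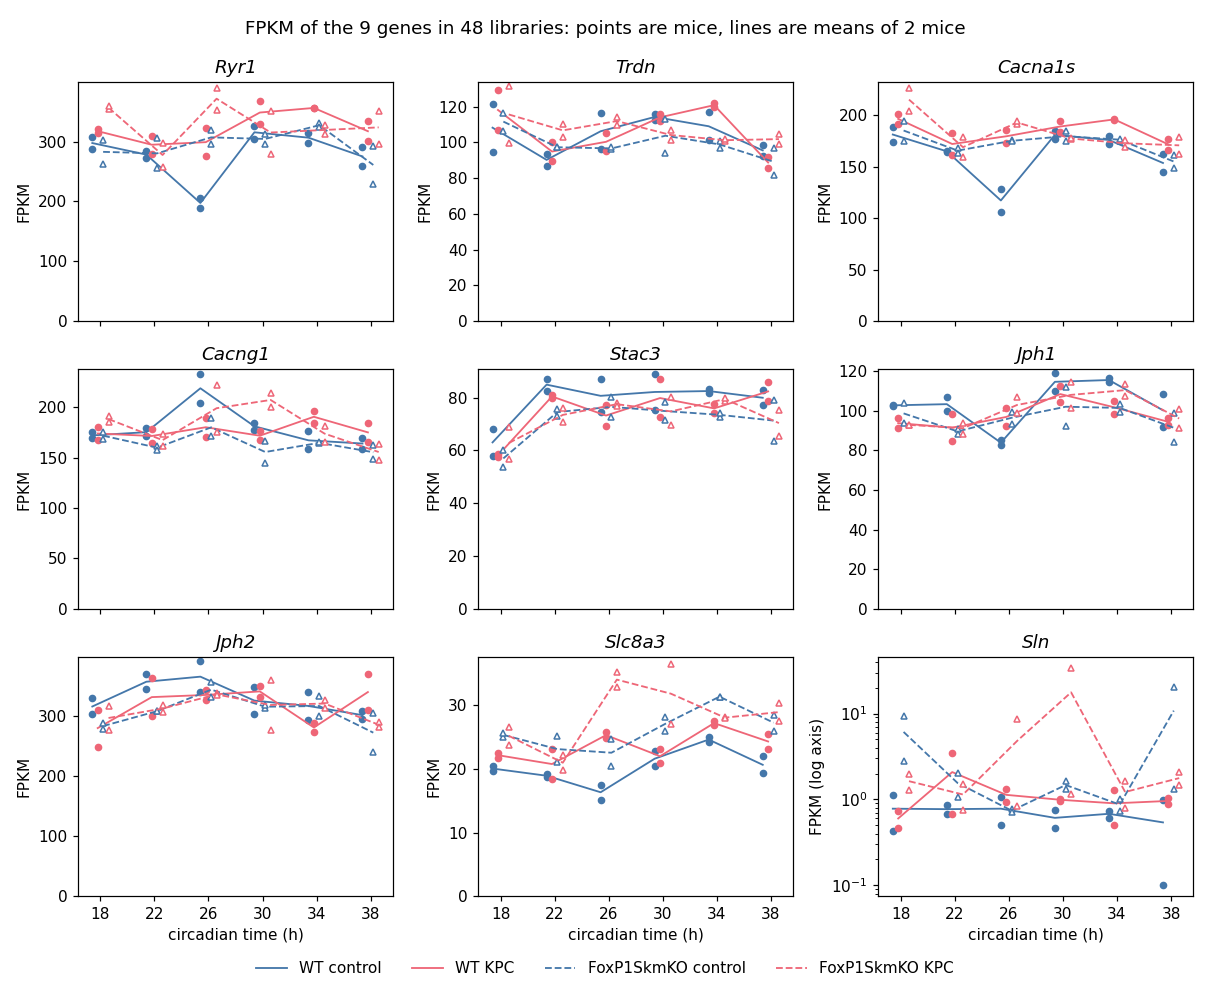
FPKM of the 9 genes against circadian time in hours, with 1 point per mouse and lines through the means of 2 mice for each genotype and condition; the Sln panel has a log axis and the others start at 0. Ryr1, Cacna1s, and Slc8a3 dip in WT control mice at CT26, Slc8a3 runs higher in FoxP1SkmKO than in WT mice, and Sln is high in a few FoxP1SkmKO mice.

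The effect of KPC tumors was tested first as the mean of the 6 circadian times. In WT mice 3 of the 9 genes rose (Ryr1, Cacna1s, and Slc8a3) and 0 fell, where 1.79% of all genes tested were called (1.16% higher). In FoxP1SkmKO mice 0 of the 9 passed, where 0.428% of all genes were called. The difference between the genotypes in the KPC effect was called for 0 genes (0%) by edgeR and by DESeq2, with 1020 genes at an unadjusted p under 0.05, and its unadjusted p was under 0.05 for 3 of the 9: Cacng1, Cacna1s, and Jph1. The median log2 difference of the 9 genes was 0.03 in WT and 0.10 in FoxP1SkmKO mice, beside 0.00 for all genes in both. In bulk tissue, fewer cells of a type and less RNA per cell cannot be told apart.

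Ryr1 encodes the calcium release channel of the sarcoplasmic reticulum (chromosome 7, 28702769 to 28824604, minus strand, in the mm39 coordinates of the deposited table, as for the other genes). Its lowest, median, and highest values were 189.6, 289, and 326 FPKM in WT control mice and 275, 322, and 368 FPKM in WT KPC mice. The groups overlapped, and the KPC mean was the higher at each of the 6 times, with both KPC mice above both controls at 5 of them. The share of all genes with such separations, or with means in the same order at every time, was not computed, here or for the genes below. The averaged log2 difference was 0.22 (SE 0.05, adjusted p = 0.00948). In FoxP1SkmKO mice the values were 229.7, 299.7, and 331 FPKM without and 258, 339, and 389.9 FPKM with tumors, a log2 difference of 0.15 (SE 0.05, adjusted p = 0.112), with a higher KPC mean at 4 of 6 times. The KPC effect of FoxP1SkmKO minus that of WT mice was -0.07, with a 95% interval of -0.20 to 0.06 (adjusted p = 0.894).

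The KPC effect on Ryr1 in WT mice was largest at CT26. There the WT control mice had 189.6 and 205 FPKM and the WT KPC mice 275 and 323 FPKM. The log2 difference was 0.59 (SE 0.11, adjusted p = 9.93e-04). These 2 control values were the lowest of all 48 libraries, the next being 229.7 FPKM, and CT26 lay 0.58 log2 units below its neighboring times in WT controls (adjusted p = 1.39e-04). Without CT26 the averaged difference in WT mice was 0.15 (adjusted p = 0.171), and with the trend on gene length removed the difference at CT26 was 0.24 (adjusted p = 0.339). The call at CT26 was also lost without the first of the 2 WT control mice (0.53, adjusted p = 0.087). Ryr1 is the longest of the 9 genes, 21838 bases in the table's gene length.

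Trdn encodes triadin, which anchors the calcium-binding protein calsequestrin to the release channel (chromosome 10, 32956550 to 33352705, plus strand). It varied little between groups. Its lowest, median, and highest values were 86.8, 99.9, and 122 FPKM in WT control, 85.8, 106, and 129 FPKM in WT KPC, 81.6, 97.2, and 117 FPKM in FoxP1SkmKO control, and 98.9, 104, and 131 FPKM in FoxP1SkmKO KPC mice. All 4 ranges overlapped, and no averaged contrast passed, with log2 differences of 0.03 for KPC in WT (adjusted p = 0.86) and 0.11 for KPC in FoxP1SkmKO mice (SE 0.05, adjusted p = 0.352).

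Cacna1s encodes the pore-forming and voltage-sensing subunit of the L-type calcium channel (chromosome 1, 135980488 to 136047560, plus strand). Lowest, median, and highest values were 106, 168, and 188 FPKM in WT control and 161, 185, and 201 FPKM in WT KPC mice. The KPC mean was higher at 6 of 6 times, and the averaged log2 difference was 0.19 (SE 0.03, adjusted p = 0.00203). FoxP1SkmKO mice had 149, 175, and 195 FPKM without and 159, 178, and 226 FPKM with tumors, a log2 difference of 0.08 (SE 0.03, adjusted p = 0.322). The genotypes differed in the averaged effect by -0.11 (95% interval -0.21 to -0.02, adjusted p = 0.764).

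At CT26 the WT control mice had 106 and 128 FPKM of Cacna1s and the WT KPC mice 173 and 185.5 FPKM. No other library of the 48 was as low as these controls, the next being 144 FPKM. The KPC difference at CT26 was 0.61 (SE 0.08, adjusted p = 2.64e-05) in WT mice, where 7.17% of all genes were called. In FoxP1SkmKO mice at CT26 the values were 176 and 174 FPKM without and 192 and 194 FPKM with tumors (0.13, SE 0.08, adjusted p = 0.663). The KPC effect in FoxP1SkmKO minus that in WT mice was -0.48 (SE 0.12, adjusted p = 0.064 by edgeR and 0.00812 by DESeq2, with 0.345% of genes called by edgeR). With the length trend removed the WT difference was 0.51 (adjusted p = 1.39e-04). Without CT26 the averaged WT difference was 0.11 (adjusted p = 0.171). In WT mice the KPC effect on Cacna1s differed between circadian times (F test over the 6 times, adjusted p = 0.0487, with 0.883% of genes called), a call that was lost without any 1 of 37 of the 48 libraries, with an adjusted p of 0.659 without the first WT control mouse at CT26, and in FoxP1SkmKO mice that test called 0 of the 9 genes and 0% of all genes.

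Cacng1 encodes the gamma subunit of the same channel (chromosome 11, 107594044 to 107607348, minus strand). Its lowest, median, and highest values were 158, 176, and 233 FPKM in WT control and 145, 165, and 189 FPKM in FoxP1SkmKO control mice. The FoxP1SkmKO mean was the lower at 6 of 6 times, though at CT18 only by 171.8 against 172.1 FPKM. The groups overlapped, and the log2 difference of -0.13 (SE 0.04, adjusted p = 0.0618) did not pass. In FoxP1SkmKO mice the KPC mean was higher at 6 of 6 times, with a log2 difference of 0.14 (SE 0.04, adjusted p = 0.0823). The DESeq2 test of the same libraries put both under 0.05 (adjusted p = 0.0436 and 0.0409). In the WT controls at CT26 Cacng1 stood apart upward, with 233 and 204.5 FPKM against 158 to 185 FPKM at the other times, opposite to Ryr1 and Cacna1s (0.30 above the neighboring times, SE 0.08, adjusted p = 0.0106). It is the shortest of the 9 genes, 1249 bases, and with the length trend removed this difference was 0.11 (adjusted p = 0.485).

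**Figure D2:**
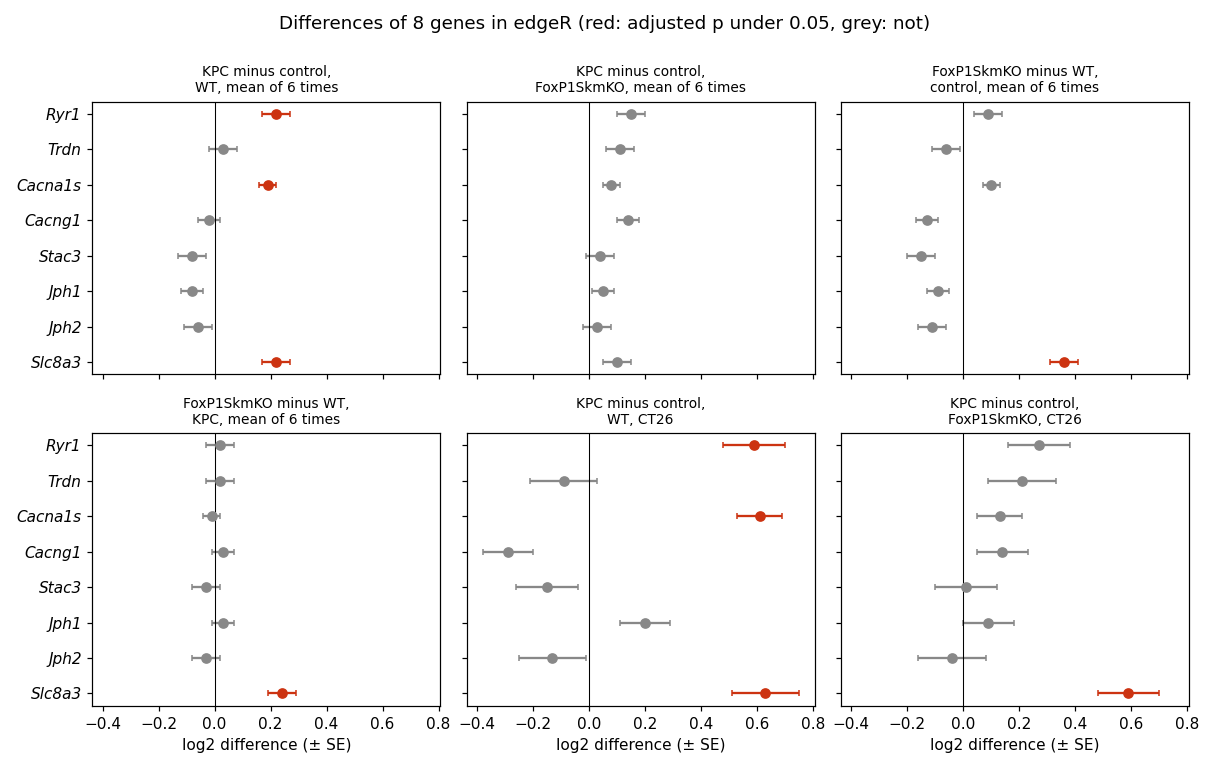
Log2 differences with their SE for 8 of the 9 genes in 6 comparisons, KPC minus control and FoxP1SkmKO minus WT, red where the adjusted p was under 0.05 and grey otherwise; Sln is left out because its SE would set the axis. Ryr1, Cacna1s, and Slc8a3 are red for KPC in WT mice, averaged and at CT26, and Slc8a3 is red in both genotype comparisons.

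Stac3 encodes an adaptor that couples the voltage sensor to the release channel (chromosome 10, 127337555 to 127344692, plus strand). Lowest, median, and highest values were 57.9, 82.2, and 88.9 FPKM in WT control and 53.8, 73.0, and 80.1 FPKM in FoxP1SkmKO control mice. The ranges overlapped, and the FoxP1SkmKO mean was the lower at 6 of 6 times, without a count over all genes. The log2 difference was -0.15 (SE 0.05, adjusted p = 0.062 by edgeR and 0.035 by DESeq2). With tumors the medians were 77.4 FPKM in WT and 75.8 FPKM in FoxP1SkmKO mice, and no KPC contrast of Stac3 passed.

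Jph1 and Jph2 encode junctophilins, which span the gap between the transverse tubule and the sarcoplasmic reticulum. For Jph1 (chromosome 1, 17034784 to 17168113, minus strand) the lowest, median, and highest values were 82.8, 105, and 119 FPKM in WT control and 84.1, 96.3, and 112 FPKM in FoxP1SkmKO control mice. The log2 difference was -0.09 (SE 0.04, adjusted p = 0.182). In the fit without the 2 WT control libraries at CT26, averaged over the other times, it was -0.15 (adjusted p = 0.049). Those 2 libraries had 85.0 and 82.8 FPKM, against 92.0 to 119 FPKM in the other WT controls, and lay 0.37 log2 units below the neighboring times (adjusted p = 0.00213).

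For Jph2 (chromosome 2, 163178162 to 163239913, minus strand) the lowest, median, and highest values were 293, 334, and 390.4 FPKM in WT control and 239.9, 308, and 356 FPKM in FoxP1SkmKO control mice. The FoxP1SkmKO mean was the lower at 6 of 6 times, without a count over all genes. The log2 difference of -0.11 (SE 0.05, adjusted p = 0.214) did not pass. The KPC groups had medians of 318 FPKM in WT and 315 FPKM in FoxP1SkmKO mice. No averaged contrast of Jph2 passed.

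**Figure D3:**
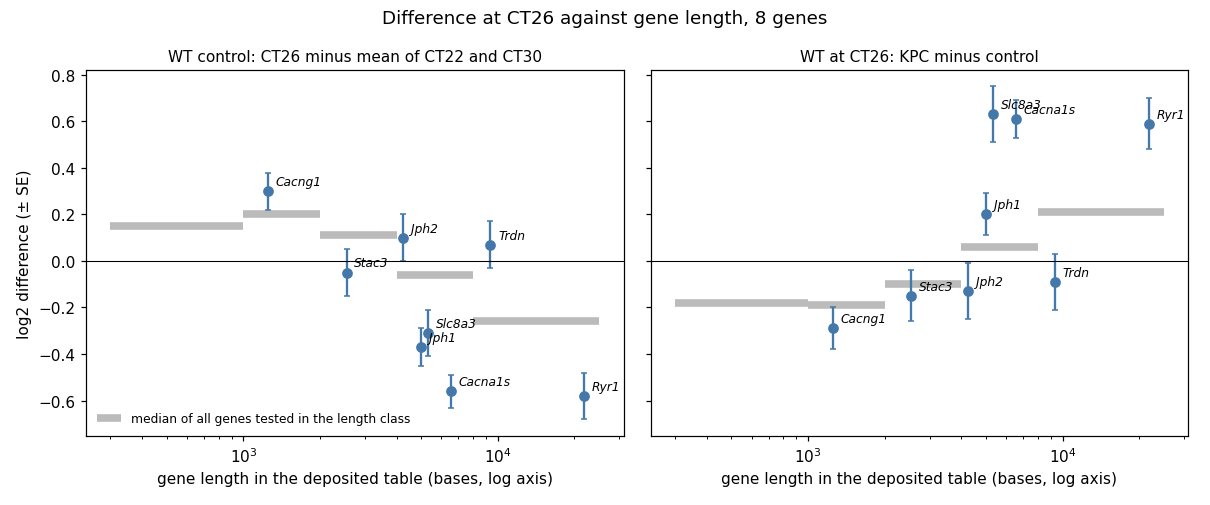
Log2 difference with its SE against gene length in bases (log axis) for 8 of the 9 genes, on the left for WT controls at CT26 against the mean of CT22 and CT30 and on the right for KPC minus control in WT mice at CT26; grey bars are the medians of all genes tested in each length class. The medians run from 0.15 in the shortest class to -0.26 in the longest on the left and from -0.18 to 0.21 on the right. Ryr1, Cacna1s, Jph1, and Slc8a3 lie below them on the left and above them on the right. Jph2, Cacng1, and Trdn do the reverse, Trdn (9352 bases) with 0.07 and -0.09, and Stac3 lies below them on both sides.

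The CT26 comparison in WT mice was thus one in which 3 of the 9 genes rose and 0 fell, beside 7.17% of all genes called (4.64% higher and 2.53% lower). Against the neighboring times, 4 of the 9 were lower in the WT controls at CT26 (Ryr1, Cacna1s, Jph1, and Slc8a3) and 1 was higher (Cacng1), beside 8.65% of all genes lower and 6.41% higher. In the other 3 groups 0 of the 9 differed from the neighboring times. With the length trend removed, Cacna1s and Jph1 still differed in that comparison (adjusted p = 6.41e-05 and 0.00678), and Ryr1, Cacng1, and Slc8a3 did not pass. Without the first of the 2 mice the comparison called 313 genes in place of 2356, and of the 9 genes Jph1, Cacng1, and Slc8a3 did not pass (adjusted p = 0.058, 0.334, and 0.496). What set these 2 libraries apart was not tested. At the other 5 times the KPC contrasts called 0 of the 9 genes in either genotype. They called 0% of all genes in 6 of the 10 contrasts, 0.0192% in FoxP1SkmKO mice at CT18 (0.0064% higher), 0.0064% in WT mice at CT30 and in FoxP1SkmKO mice at CT38, and 0.0256% in WT mice at CT38. The difference between WT and FoxP1SkmKO mice called at most 0.0064% of genes at these times, and 0 of the 9.

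Slc8a3 encodes a sodium-calcium exchanger of the plasma membrane that uses the sodium gradient to move calcium (chromosome 12, 81244689 to 81379954, minus strand). It was the 1 gene of the 9 whose averaged genotype difference passed in edgeR. Lowest, median, and highest values were 15.2, 20.1, and 25.1 FPKM in WT control and 20.4, 25.9, and 31.4 FPKM in FoxP1SkmKO control mice. The ranges overlapped across times, but at each of the 6 times both FoxP1SkmKO mice were above both WT mice. How many of all genes separate in this way was not computed. The log2 difference was 0.36 (SE 0.05, adjusted p = 1.85e-05), a 1.28-fold higher level, and 1 of the 9 genes was called where 3.44% of all genes were (1.86% higher). It was 0.34 without CT26 (adjusted p = 2.63e-04), and it passed in each of the alternatives tried.

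In KPC mice the values of Slc8a3 were 18.4, 23.2, and 27.5 FPKM in WT and 19.8, 27.8, and 36.6 FPKM in FoxP1SkmKO mice. Both FoxP1SkmKO mice were above both WT mice at 5 of the 6 times, again without a count over all genes. The log2 difference was 0.24 (SE 0.05, adjusted p = 0.0118), and Slc8a3 was again 1 of the 9 called, beside 0.32% of all genes. This call was lost without CT26 (0.21, adjusted p = 0.082) and without CT30 (0.18, adjusted p = 0.26). The size of the genotype difference did not differ between control and KPC mice by the interaction test (0.12 smaller with tumors, 95% interval of the change -0.25 to 0.01, adjusted p = 0.819), which does not show that the sizes were alike.

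In WT mice Slc8a3 rose with KPC tumors by 0.22 on the log2 scale, averaged over the times (SE 0.05, adjusted p = 0.0137), with a higher mean at 6 of 6 times. Without CT26 the difference was 0.14 (adjusted p = 0.234). In FoxP1SkmKO mice it was 0.10 (SE 0.05, adjusted p = 0.364), with a higher mean at 3 of 6 times. At CT26 the WT control mice had 15.2 and 17.5 FPKM and the WT KPC mice 25.8 and 24.9 FPKM, while the FoxP1SkmKO control mice had 20.4 and 24.7 FPKM and the FoxP1SkmKO KPC mice 35.2 and 32.9 FPKM. The groups did not overlap in either genotype, and how many of all genes separate in this way at CT26 was not computed. The separation in WT mice uses the WT control libraries at CT26, which stood apart. The log2 differences were 0.63 (SE 0.12, adjusted p = 7.42e-04) in WT and 0.59 (SE 0.11, adjusted p = 0.0353) in FoxP1SkmKO mice, and in the latter Slc8a3 was 1 of 6 genes called in all (0.0384%). The FoxP1SkmKO contrast does not use the WT control libraries, apart from the shared estimate of the spread, and it passed without them (0.59, adjusted p = 0.0455). It did not pass in edgeR on its 4 libraries alone (adjusted p = 0.431), and it was lost without any 1 of 6 libraries, its own 4 among them, with differences between 0.46 and 0.73 and an adjusted p of up to 0.451. The WT call was lost without the first WT control mouse (0.52, adjusted p = 0.0949). The KPC contrast and the genotype contrast share the control mice of each genotype.

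Sln encodes sarcolipin, a small membrane protein that uncouples calcium transport from ATP use by the sarcoplasmic reticulum calcium pump (chromosome 9, 53757448 to 53761844, plus strand). It was low in WT mice. Lowest, median, and highest values were 0.10, 0.71, and 1.13 FPKM in WT control, 0.47, 0.95, and 3.48 FPKM in WT KPC, 0.72, 1.31, and 20.3 FPKM in FoxP1SkmKO control, and 0.76, 1.51, and 34.1 FPKM in FoxP1SkmKO KPC mice. These values rest on 2 to 83 reads in the WT libraries and on up to 771 reads in the FoxP1SkmKO libraries. The highest values came from 4 FoxP1SkmKO mice, each at another combination of condition and time, and the other mouse of each of those groups was between 0.84 and 2.77 FPKM.

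The averaged log2 difference of Sln between FoxP1SkmKO and WT was 1.62 in control mice (SE 0.52, adjusted p = 0.0739) and 1.37 in KPC mice (SE 0.47, adjusted p = 0.23). Neither passed in edgeR, and in control mice DESeq2 gave an adjusted p of 0.0124. An exact two-sided permutation test of log2(FPKM + 1) within circadian time, chosen after the skew of these values was seen, gave p = 9.00e-04 in control mice (mean difference 0.89, higher at 5 of 6 times, adjusted p = 0.0036 over 4 comparisons of Sln). In KPC mice the same exact test gave p = 0.0778 (mean difference 0.70, higher at 5 of 6 times, adjusted p = 0.104). For the effect of KPC tumors this exact test returned p = 0.0783 (adjusted p = 0.104) within WT and p = 0.885 within FoxP1SkmKO mice. Leaving out 1 library, which gained the call in 3 fits, moved the edgeR difference in control mice between 1.11 and 2.03. The lowest of these, 1.11 (adjusted p = 0.257), was without the FoxP1SkmKO control mouse at CT38 that had 20.3 FPKM.

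Among genes that respond to denervation, Chrna1 was high in the libraries with high Sln. Chrna1, the alpha subunit of the muscle acetylcholine receptor, had 19.3 FPKM in the FoxP1SkmKO KPC mouse at CT30 with 34.1 FPKM of Sln, 14.1 FPKM in the FoxP1SkmKO control mouse at CT38 with 20.3 FPKM, 8.33 FPKM in the FoxP1SkmKO control mouse at CT18 with 9.43 FPKM, and 7.92 FPKM in the FoxP1SkmKO KPC mouse at CT26 with 8.74 FPKM. The next highest Chrna1 value of the 48 libraries was 4.41 FPKM. The summed level of the 7 denervation-responsive genes described (Chrna1, Chrng, Myog, Ncam1, Runx1, Gadd45a, and Myh3) ranged from 10.8 to 16.3 FPKM in WT control, 10.2 to 19.6 in WT KPC, 12.4 to 30.9 in FoxP1SkmKO control, and 11.5 to 41.9 in FoxP1SkmKO KPC mice, and 0 of the 7 were at 0 throughout a group. Chrna1 and Gadd45a made up most of this sum in the 4 mice. Runx1 (0.34 to 0.55 FPKM) and Ncam1 (0.72 to 1.17 FPKM) were also higher in these 4 mice than in any other library. The next highest values were 0.29 FPKM of Runx1 and 0.67 FPKM of Ncam1. Not every gene of the list was high in the 4 mice. In the CT18 mouse Gadd45a was at 6.80 FPKM (group median 7.93), and in the CT38 mouse Myh3 was at 0.52 FPKM (group median 0.61) and Chrng at 0.03 FPKM. The highest Myog value, 3.59 FPKM, was that of a FoxP1SkmKO KPC mouse at CT38 with 2.06 FPKM of Sln. The part of these genes in the Sln values was not tested. The 8 slow-fiber markers summed to medians of 114 FPKM in WT control and 112 FPKM in FoxP1SkmKO control mice.

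**Figure D4:**
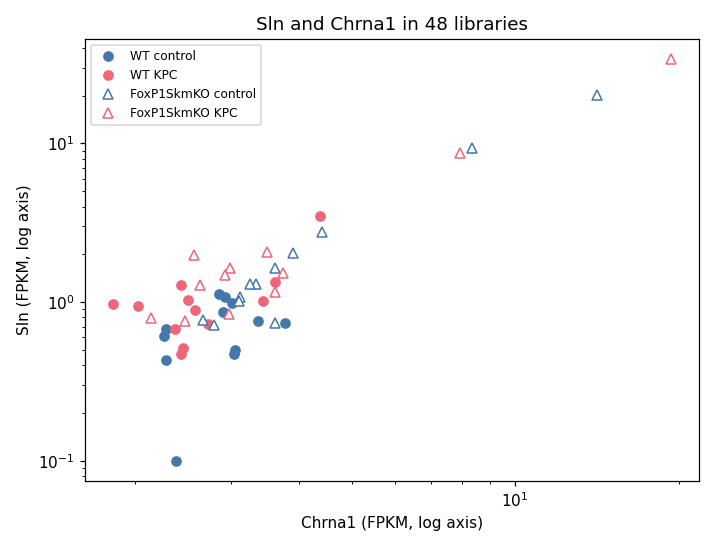
Sln against Chrna1 in FPKM on log axes, 1 point per library, colored by condition and shaped by genotype. In 4 FoxP1SkmKO libraries Sln lies between 8.74 and 34.1 FPKM and Chrna1 between 7.92 and 19.3 FPKM, while Sln is at or below 3.48 FPKM in the others.

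The other genes of the pathway were taken from a list of 37 that holds partners of the voltage sensor, triad proteins, calcium-binding and channel-bound proteins of the sarcoplasmic reticulum, uptake, extrusion, and store-operated entry. Of these, 35 passed the filter. Between the genotypes in control mice, 7 of the 35 fell in FoxP1SkmKO mice and 0 rose, beside 1.58% of all genes lower, and the median log2 difference of the 35 was -0.10, beside 0.00 for all genes. Mrln, a micropeptide that inhibits the calcium pump of fast fibers, fell by 0.49 on the log2 scale (SE 0.08, adjusted p = 2.38e-04). Tmem38b, an intracellular cation channel, fell by 0.31 (SE 0.05, adjusted p = 4.84e-04), and Stim2, a calcium sensor of the store, fell by 0.24 (SE 0.05, adjusted p = 0.00618). The others that fell were Calm3 (calmodulin), Asph (whose locus also encodes junctin), Fkbp1a (a release channel subunit), and Bin1 (which shapes transverse tubules), by 0.11 to 0.17. In WT controls Bin1 and Fkbp1a were also higher at CT26 than at its neighboring times (by 0.32 and 0.23). Averages without the WT control libraries at CT26 are not given for these 7 genes. Calm3, Asph, Fkbp1a, and Bin1 each lost the call without any 1 of 10 to 24 libraries. In KPC mice 0 of the 35 differed by genotype, beside 0.32% of all genes called. The change in the genotype difference between control and KPC mice was called for 0 of the 35 and 0% of all genes.

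Under KPC tumors in WT mice 2 of the 35 fell and 0 rose, averaged over the times, beside 0.627% of all genes lower and 1.16% higher: Sypl2, a triad protein, by 0.20 (SE 0.05, adjusted p = 0.0311) and Asph by 0.17 (SE 0.04, adjusted p = 0.0311). Each lost the call without any 1 of 12 or 13 libraries, with an adjusted p of up to 0.0969. Casq1, the calsequestrin of fast fibers, had a log2 difference of -0.20 (SE 0.06, adjusted p = 0.074). In FoxP1SkmKO mice 0 of the 35 passed, beside 0.428% of all genes called. Atp2a1, the calcium pump of fast fibers, had the highest level of the pathway, with a median of 10188 FPKM, and log2 differences of 0.10 in WT (adjusted p = 0.0918) and 0.11 in FoxP1SkmKO mice (adjusted p = 0.0789). The log2 differences of Cacnb1 and Orai1 under tumors lay between -0.04 and -0.01 in both genotypes.

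At CT26 in WT mice 6 of the 35 passed, beside 7.17% of all genes. S100a1, Pvalb, Bin1, and Fkbp1a fell by 0.53, 0.40, 0.33, and 0.28, and Atp2b1, a calcium pump of the plasma membrane, and Srl, a calcium-binding protein of the sarcoplasmic reticulum, rose by 0.38 and 0.22. S100a1 and Pvalb, which encode small calcium-binding proteins, have lengths of 694 and 1041 bases in the table, and Atp2b1 has 15218. Without the first WT control mouse 5 of these 6 calls, all but that of S100a1, were lost. In FoxP1SkmKO mice at CT26 0 of the 35 passed, beside 0.0384% of all genes called.

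Time of day was tested with a 24 h sinusoid shared by all 48 mice, with a separate mean for each genotype and condition. Of the 9 genes, 5 passed, beside 34.9% of all genes tested and 26 of the 35 pathway genes. Slc8a3 had an amplitude of 0.17 on the log2 scale with a peak at CT33.4 (adjusted p = 1.59e-04), Jph1 0.11 with a peak at CT32.2 (adjusted p = 7.79e-04), and Stac3 0.13 with a peak at CT29.7 (adjusted p = 0.00384). Jph2 had an amplitude of 0.11 with a peak at CT26.8 (adjusted p = 0.0016) and Cacng1 0.09 with a peak at CT27.0 (adjusted p = 0.0159), which did not pass without the 2 WT control libraries at CT26 (0.06, adjusted p = 0.0901). Ryr1, Trdn, Cacna1s, and Sln did not pass (adjusted p = 0.125, 0.693, 0.788, and 0.803). The amplitudes of the 5 were small: Slc8a3 averaged 20.97 FPKM at CT22 and 27.8 FPKM at CT34 (SD 2.40 and 2.59, n = 8 libraries at each time).

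**Figure D5:**
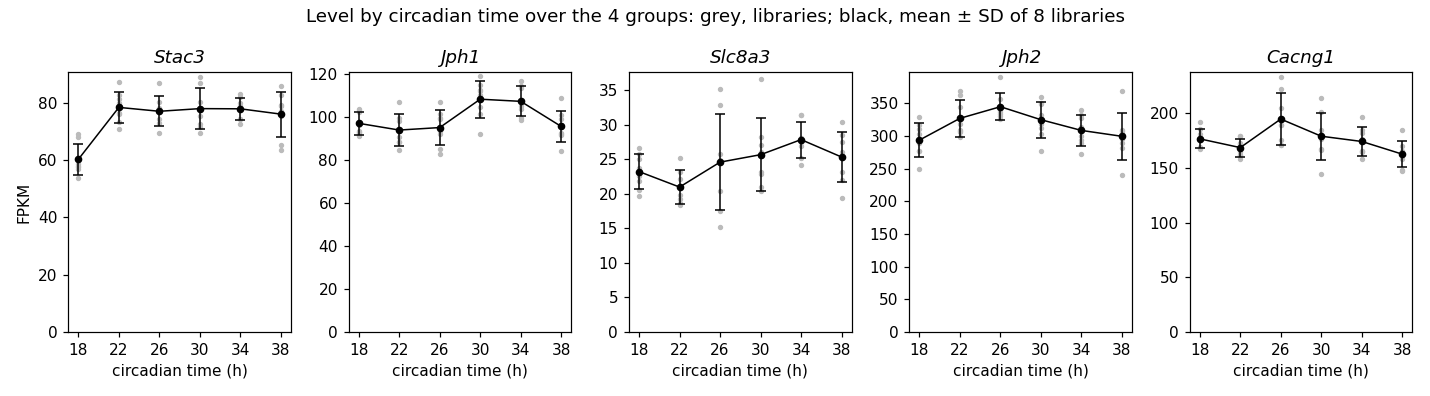
FPKM of Stac3, Jph1, Slc8a3, Jph2, and Cacng1 against circadian time in hours, with 1 grey point per library and black means ± SD of the 8 libraries at each time. Stac3 is low at CT18 (mean 60.2 FPKM) and flat from CT22 to CT38 (means 76.0 to 78.3 FPKM), Jph1 and Slc8a3 are highest between CT30 and CT34, and Jph2 and Cacng1 at CT26.

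Among the pathway genes Slc8a1, another sodium-calcium exchanger, had an amplitude of 0.57 with a peak at CT28.9 (adjusted p = 3.06e-12), and Orai1, the channel of store-operated entry, 0.17 with a peak at CT21.4 (adjusted p = 2.36e-05). Asph, Cav3, Selenon, Sypl2, and Fkbp1a had amplitudes of 0.09 to 0.26. Atp2a1 did not pass (amplitude 0.01, adjusted p = 0.835).

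Stac3 did not follow a smooth wave. At CT18 its lowest, median, and highest values were 53.8, 58.2, and 68.9 FPKM over the 8 libraries, and at the other 5 times 63.4, 77.4, and 88.9 FPKM over 40 libraries. Of those 40, 2 were below the highest CT18 value. In a test with 5 free terms for time in place of the sinusoid, 7 of the 9 genes passed, beside 38.3% of all genes, and Stac3 had the smallest adjusted p of the 9 (2.04e-07). Cacna1s (adjusted p = 0.00531) and Trdn (adjusted p = 0.00227) passed in this test and not with the sinusoid. Cacna1s had a median of 193 FPKM at CT18 (range 173.8 to 226.3) and 175 FPKM at the other times (range 105.9 to 196.6). For Trdn the medians were 111.9 FPKM at CT18 (range 94.8 to 131.4) and 101 FPKM at the other times (range 81.6 to 122.1). At CT30 alone the Trdn median was 112.4 FPKM. Cacna1s, and not Trdn, thus had its highest median at CT18, where Stac3 was low.

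Within each genotype and condition, 12 libraries were fitted on their own, with a threshold of unadjusted p under 0.01. In WT control and WT KPC mice 0 of the 9 genes passed, beside 4.92% and 4.22% of all genes. In FoxP1SkmKO control mice Slc8a3 passed (amplitude 3.93 FPKM around 26.1 FPKM, peak at CT34.8, p = 0.00301, adjusted p = 0.15, sinusoid F test, n = 12), beside 4.07% of all genes, and lost the call without any 1 of 3 of the 12 libraries (both mice at CT34 and the mouse numbered 2 at CT22), with an unadjusted value of up to 0.0122. In FoxP1SkmKO KPC mice Jph1 passed (amplitude 10.1 FPKM, peak at CT31.4, p = 0.00342, adjusted p = 0.264, sinusoid F test, n = 12), beside 2.63% of all genes, and lost the call without the mouse numbered 1 at CT30 (0.0123). No gene passed a test of the change in rhythm with tumors after adjustment in either genotype (0%), and the smallest unadjusted p of the 9 was that of Cacng1 in WT mice (p = 0.0209, adjusted p = 0.752, sinusoid F test, n = 24).

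The promoter windows were read from the mm39 genome with GENCODE starts, 250 bases before to 50 after, for 21770 protein-coding genes. The letters CACGTG, the E-box that the clock activators bind, occur in 7.81% of these windows on either strand. Of the 9 genes, Jph1, one of those with a 24 h sinusoid, holds it, at 2 places. The letters TGTTTAC, a forkhead motif, occur in 3.15% of the windows and among the 9 in Stac3 alone, on the minus strand. Sites of 30 bases are shown because FoxP1 is a forkhead factor and the E-box belongs to the clock, with the motif in capitals, on the strand of the gene, and named by the position of the motif's first base from the start.
Jph1 at -169, chr1:17168265-17168294: tccgcagacacaCACGTGcccagagctcgc
Jph1 at -9, chr1:17168105-17168134: cggtgcccggctCACGTGggcgggtgggag
Stac3 at -101, chr10:127337430-127337459: acctgctctgtGTAAACActcggagaagag
The D-box letters TTATGTAA (0.937% of windows) occur in 0 of the 9, and CAGCTG, the E-box of myogenic factors, occurs in 5 of the 9 and in 14.9% of all windows. A match describes the sequence and is not evidence of binding, and Slc8a3, which differed by genotype, holds none of the 4 motifs in its window.

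The genes most like each of the 9 over the 48 libraries were named by the Pearson correlation of log2(FPKM + 1) among 10007 genes with a mean of at least 1 FPKM. The libraries share genotype, condition, time, and depth, so these values are descriptions. Ryr1 was most like Sptb (r = 0.92) and Kif13a (0.88), and Cacna1s most like Scn4a (0.90), the muscle sodium channel, and Zfp106 (0.87). Slc8a3 was most like Map4 (0.87) and Thrb (0.80), a thyroid hormone receptor. Jph2 was most like Szrd1 (0.86) and Egln2 (0.84), and Stac3 most like Drap1 (0.83) and Cox5b (0.82). Jph1 was most like Adam9 (0.75) and ENSMUSG00000121089 (0.73), Trdn most like Eif5b (0.73) and Gm47908 (0.73), and Cacng1 most like Psmd4 (0.71) and Bin1 (0.68). Sln was most like Chrna1 (0.94) and Usp20 (0.85), values that rest on the few libraries with high Sln. Among the 9 themselves the highest correlation was that of Ryr1 with Cacna1s (0.86), followed by Jph2 with Stac3 (0.61), and the lowest were Jph2 with Sln (-0.43) and Cacna1s with Stac3 (-0.40). Ryr1 and Cacna1s both had their lowest values in the WT controls at CT26, where Cacng1 had its highest. No correlation was computed without those libraries.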

How the data were processed

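RNA-seq was done by the authors on TA muscle of 48 mice, 1 library each. The deposited counts are raw counts per gene on mm39, made by the authors, who name STAR and HTSeq in their methods, while the submitters' processing notes name HISAT2 2.0.5. The deposited FPKM values were made by the authors from counts, gene length, and library size. The 12 count tables also hold fold changes, p-values, and adjusted p-values of the authors' comparisons, which were not used. A gene absent from 1 table but present in others was given its count from its FPKM, which restored 367 to 1064 reads per library, each a count of 1. Samples were grouped by title. The members, the gene lists, and the comparison of CT26 with its neighboring times were chosen with earlier results of these data known.

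Counts were fitted with edgeR 4.0.16 in R 4.3.3 (TMM, filterByExpr, 24 group coefficients, 15637 genes, prior degrees of freedom 8.611), and an adjusted p under 0.05 was called. Contrasts averaged the 6 times or took 1 time. The spread is between mice. Sinusoids of 24 h were fitted to FPKM in each genotype and condition, and to counts over all 48 mice. Genes named outside the 9 came from the pathway list: those called, and a few fixed ones. For each of the 9, the 2 genes most correlated over the libraries are named. DESeq2 1.42.0, other scaling, no filter, a replicate block, removal of a lowess trend on gene length, omission of each time and of each library, and fits of 4 libraries were the alternatives, and omission of the WT control libraries at CT26 and the permutation test of Sln were added after the data were seen. Averages without the WT control libraries at CT26 left CT26 out for every group. Leave-one-out fits kept the genes tested and the trended dispersion of all 48 libraries. The procedures were tested on simulated data. Promoters were read from GRCm39 (mm39) with GENCODE release M39. A pathway gene and a denervation-responsive gene of the lists are not reported here, and the summed denervation level leaves the latter out.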

Additional observations from a re-analysis of the deposited data

Results flagged for a closer look

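The KPC effect on Cacna1s in WT mice passed the F test of edgeR for a difference between the circadian times (adjusted p = 0.0487), narrowly. The call was lost with the replicate block (adjusted p = 0.0616), with the length trend removed (adjusted p = 0.208), and without any 1 of 37 of the 48 libraries. At CT26 the log2 difference was 0.61, and averaged over the other 5 times it was 0.11.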

How the results depend on the processing

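Over 276 pairs of groups the correlation of same-numbered deviations ran from -0.324 to 0.234 (median -0.004), and 12 were over 0.1. Replicate numbers thus showed no pairing common to all groups, which cannot exclude a pairing shared by some of them. With the replicate block the Cacna1s test by time had an adjusted p of 0.0616. Of 800 values of single genes under the alternatives, 698 kept direction and side of the threshold, 63 lost and 29 gained the call, and 10 reversed. Counts of called genes moved as follows, and the causes were not tested. The averaged KPC effect in WT mice called 280 genes, and 794 without the filter, 138 without CT26, 118 without CT30, 157 without CT34, 117 without the WT control libraries at CT26, and 83 to 419 without 1 library. In FoxP1SkmKO mice it called 67, and 527 without the filter, 3, 130, 15, 107, and 21 without CT18, CT22, CT30, CT34, and CT38, 161 by DESeq2, and 17 to 236 without 1 library. The difference between genotypes called 0, and 104 without the filter and 0 to 4 without 1 library. The genotype effect called 538 in control mice, and 933 without the filter, 323 without CT18, 268 without CT38, and 316 to 769 without 1 library. In KPC mice it called 50, and 470 without the filter, 20, 138, 0, 27, and 21 without CT18, CT22, CT30, CT34, and CT38, 116 by DESeq2, and 17 to 203 without 1 library.

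At CT26 the KPC effect called 1121 in WT mice, and 407 with the length trend removed, 345 by edgeR and 587 by DESeq2 on 4 libraries, and 89 to 1364 without 1 library. In FoxP1SkmKO mice it called 6, and 176 without the filter, 2 by edgeR and 21 by DESeq2 on 4 libraries, 18 by DESeq2 on 48, and 0 to 36 without 1 library. Their difference called 54, and 216 without the filter, 17 with the length trend removed, 140 by DESeq2, and 1 to 225 without 1 library. WT controls at CT26 against neighboring times called 2356, 1018 with the length trend removed, and 313 to 2419 without 1 library, and the 3 other groups together 12, with 72 by DESeq2, 428 without the filter, and 4 to 33 without 1 library. The KPC effect by time called 138 in WT mice, and 806 without the filter, 28 with the length trend removed, 368 by DESeq2, and 1 to 218 without 1 library. In FoxP1SkmKO mice it called 0, and 905 without the filter, 52 by DESeq2, and 0 to 39 without 1 library. The other 5 times together called 9, and 400 and 214 by DESeq2 and edgeR on 4 libraries, 135 by DESeq2 on 48, 2492 without the filter, and 5 to 233 without 1 library. The difference in rhythm in FoxP1SkmKO mice called 0, and 0 to 1 without 1 library.

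The values that reversed were not called. Cacng1 with KPC in WT mice went from -0.02 to 0.01 with the length trend removed, 0.04 without CT26, and 0.04 without the WT control libraries there. Trdn went from 0.03 to -0.00 without CT34 and ran from -0.00 to 0.06 without 1 library. Sln with KPC in FoxP1SkmKO mice went from 0.30 to -0.18 without CT26, -0.35 without CT30, and -0.17 without the WT control libraries at CT26, and ran from -0.35 to 0.81 without 1 library. Ryr1 between genotypes in control mice went from 0.09 to -0.02 without CT26 and to -0.02 without those libraries. The difference between genotypes of Slc8a3 at CT26 went from -0.04 to 0.01 with the length trend removed and ran from -0.17 to 0.12 without 1 library. With 2 mice per group, contrasts at 1 time rest on 4 libraries and the spread of all groups, and Sln is limited by its low counts.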
